A study of Mus musculus with 27 samples.

Results

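Fgl2, Alpl and Tdo2 were followed in C2C12 cells with full-length NFIA, with its Δpro#3 mutant or, as control, with neither, before and after differentiation and with or without forskolin. They are 3 of the 24825 genes listed for each sample. They were picked by name as genes whose response to forskolin differed most between the constructs, so the values of the 18 day 7 samples chose them and are given here as a description, without a test. C2C12 is a line of mouse myoblasts that fuses into myotubes. Full-length NFIA, a transcription factor that promotes brown adipocyte differentiation, or its Δpro#3 mutant, which lacks a short C-terminal stretch of the protein, was introduced by a retroviral vector; what control cells received is given only as control. Cells were collected at day 0, at day 7, and at day 7 with 10 µM forskolin for 4 hours, with 3 samples in each of the 9 groups (27 samples). All cells taken at day 7, controls included, had received the same adipogenic medium, with isobutylmethylxanthine, indomethacin, dexamethasone, insulin, T3 and rosiglitazone for the first 48 hours and insulin, T3 and rosiglitazone thereafter. The expression comes from a retrovirus in a cell line rather than from the endogenous gene in adipocytes. Nothing in the labels says that samples of a group came from separate cultures, so their spread may be technical.

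Forskolin activates adenylyl cyclase and raises cyclic AMP, the second messenger through which adrenergic signals reach brown and beige adipocytes. Cyclic AMP activates protein kinase A, which phosphorylates CREB, and CREB binds the cyclic AMP response element (CRE) in the promoters of many immediate response genes. NFI factors bind DNA as dimers at a palindrome of TTGGC and its complement. The 3 genes belong to separate pathways. Fgl2 encodes a fibrinogen-like protein that is known in a membrane form with prothrombinase activity and in a secreted, immunosuppressive form. Alpl encodes the tissue-nonspecific alkaline phosphatase, which hydrolyses pyrophosphate in mineralizing tissue and phosphocreatine in thermogenic fat. Tdo2 encodes tryptophan dioxygenase, a largely hepatic enzyme that opens the indole ring of tryptophan at the first step of the kynurenine pathway.

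The promoter windows of the genes are shown because all 3 genes had their highest level under the same agent in the same cells. By the GENCODE annotation of NCBIM37, the mouse build of the deposited values, Fgl2 spans chr5:20878460-20884192 on the plus strand with 2 exons and lies on the opposite strand within an intron of Ccdc146. Alpl spans chr4:137297648-137352299 on the minus strand, with 12 exons in its longest transcript. Tdo2 spans chr3:81761012-81780124 on the minus strand, also with 12 exons in its longest transcript. RefSeq promoter windows of 300 bases (250 before and 50 after the start, taken from GRCm38.p6) were each found once, letter for letter, in NCBIM37. They lie at chr5:20878241-20878540 for Fgl2, at chr4:137352250-137352549 for the upstream start of Alpl, at chr4:137322341-137322640 for its downstream start, and at chr3:81779601-81779900 for Tdo2. Each is written 5′ to 3′ on the strand of its gene, and capitals mark matches to TTGGC, the short NFI motif, or to TGACG, the short CRE motif, on either strand.
Fgl2: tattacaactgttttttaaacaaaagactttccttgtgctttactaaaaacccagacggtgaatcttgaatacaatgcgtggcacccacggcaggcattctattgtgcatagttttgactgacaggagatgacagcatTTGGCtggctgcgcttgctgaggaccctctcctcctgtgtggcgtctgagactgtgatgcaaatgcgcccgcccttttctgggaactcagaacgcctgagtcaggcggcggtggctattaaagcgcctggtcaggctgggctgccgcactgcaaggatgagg
Alpl, upstream start: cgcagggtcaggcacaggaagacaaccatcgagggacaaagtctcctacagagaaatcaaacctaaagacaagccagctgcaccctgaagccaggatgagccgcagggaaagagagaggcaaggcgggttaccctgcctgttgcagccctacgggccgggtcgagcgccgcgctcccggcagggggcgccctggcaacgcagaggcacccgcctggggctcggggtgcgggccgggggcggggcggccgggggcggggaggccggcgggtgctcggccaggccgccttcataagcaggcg
Alpl, downstream start: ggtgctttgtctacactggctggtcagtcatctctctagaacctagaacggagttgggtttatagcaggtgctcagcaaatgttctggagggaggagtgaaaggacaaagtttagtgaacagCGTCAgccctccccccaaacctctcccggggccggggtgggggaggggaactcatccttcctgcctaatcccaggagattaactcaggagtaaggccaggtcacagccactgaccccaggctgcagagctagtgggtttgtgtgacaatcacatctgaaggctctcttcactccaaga
Tdo2: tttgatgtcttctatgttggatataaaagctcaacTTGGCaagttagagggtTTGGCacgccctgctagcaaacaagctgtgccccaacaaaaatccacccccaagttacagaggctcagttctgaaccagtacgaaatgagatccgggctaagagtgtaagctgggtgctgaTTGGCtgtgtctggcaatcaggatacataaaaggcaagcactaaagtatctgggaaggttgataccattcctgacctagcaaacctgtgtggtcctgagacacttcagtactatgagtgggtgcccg
The TTGGC of Fgl2 overlaps an E box. TTGGC was found 3 times in the Tdo2 window, first at positions -215, -198 and -77 from the start, and once in the Fgl2 window at -112. Neither Alpl window held it. At least one TTGGC stood in 46.7% of all 32851 promoter windows of this length, and 3 or more in 3.75%. TGACG was found only in the downstream Alpl window, on the reverse strand at -128, against 20.8% of all windows. The full CRE, TGACGTCA (1.79% of all windows), and the full NFI palindrome, TTGGC and GCCAA with 5 bases between them (0.0365%), were in none of the 4 windows, and both full motifs overlap the short ones. The E box, CANNTG, was found 3 times in the Fgl2 window, 3 times in the downstream and 1 time in the upstream Alpl window, with 72.3% of all windows holding at least 1. TATAAA was found 1 time in the downstream Alpl window and 1 time in the Tdo2 window, against 13.6% of all windows. A match is a stretch of letters and says nothing about binding.

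The samples held between 9567769 and 27230965 fragments (median 17707223), worked back from the deposited FPKM, the fragments of a gene divided by its length and by the depth of the sample. Nfia, whose reads from the construct and from the endogenous gene cannot be told apart, averaged 242 FPKM ± 14.2 (SD, n = 3) in full-length NFIA cells at day 0, 482 ± 40.1 at day 7 and 539 ± 49.9 with forskolin. In Δpro#3 cells it averaged 406 ± 14.6, 413 ± 58.9 and 294 ± 43.8 FPKM in the same order. Control samples had 0.0885 to 0.253 FPKM of Nfia at day 7, 0.0944 to 0.195 with forskolin, and 0.175 to 7.35 at day 0, where replicate 2 was the highest. At day 7 without forskolin, the summed level of 10 adipocyte markers was 13675 to 15185 FPKM in full-length NFIA, 639 to 2068 in Δpro#3 and 363 to 401 in control samples, while 10 myotube markers summed to 1789 to 2422, 12588 to 13065 and 11411 to 13355 FPKM. The cells compared at day 7 therefore differed in these markers, and the part of that difference in the values below was not tested. In such bulk samples, fewer cells with a transcript and less of it per cell cannot be told apart. With forskolin, 6 hepatocyte markers summed to 3.21 to 3.77 FPKM in full-length NFIA, 1.09 to 1.13 in Δpro#3 and 0.0730 to 0.159 in control samples, with Alb, Ttr, Tat and Serpina1a without a fragment in full-length NFIA cells. The part of these markers in the Tdo2 values was not tested.

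Fgl2 was high in the cells with full-length NFIA or Δpro#3 that had received forskolin, and at 2.30 FPKM or less in every other sample. In full-length NFIA cells with forskolin the 3 samples read 66.6, 67.0 and 80.8 FPKM, a mean of 71.5 ± 8.10 (SD, n = 3). In Δpro#3 cells with forskolin they read 40.3, 23.9 and 28.5 FPKM, a mean of 30.9 ± 8.45. These groups did not overlap, as in 20.4% of the 19075 genes with a fragment at day 7 in that direction, and the Δpro#3 mean was 43.2% of the full-length mean. In control cells with forskolin the samples read 0.278, 0.457 and 0.501 FPKM, which overlaps the 0.122, 0.378 and 0.385 FPKM of control cells without it. At day 7 without forskolin, full-length NFIA cells read 0.610, 0.811 and 0.674 FPKM and Δpro#3 cells 2.30, 1.34 and 1.53 FPKM. Before forskolin the Δpro#3 mean was thus above the full-length mean, at 247% of it, the reverse of their order under forskolin, with control cells lowest in both. The full-length and Δpro#3 groups without forskolin did not overlap, as in 27.4% of genes in that direction. At day 0 control cells read 0.324, 0.370 and 0.366 FPKM, full-length NFIA cells 0.186, 0.210 and 0.234, and Δpro#3 cells 0.509, 0.335 and 0.522. From the highest mean down, the order was full-length NFIA with forskolin, Δpro#3 with forskolin, Δpro#3 at day 7 and full-length NFIA at day 7. Then came Δpro#3 at day 0, control with forskolin, control at day 0, control at day 7 and full-length NFIA at day 0. Neighbours among these last groups overlapped.

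Alpl was high in full-length NFIA cells already before differentiation. In full-length NFIA cells the samples read 4.74, 4.02 and 4.92 FPKM at day 0, a mean of 4.56 ± 0.477 (SD, n = 3), and 4.54, 5.07 and 5.79 FPKM at day 7, a mean of 5.13 ± 0.626. With forskolin they read 127.6, 127.9 and 119.9 FPKM, a mean of 125 ± 4.52. The day 0 and day 7 groups overlapped. Every forskolin sample stood above the day 7 samples without it, as in 10.9% of genes in that direction. In Δpro#3 cells the samples read 0.0509, 0.0755 and 0.0143 FPKM at day 0, 0.361, 0.406 and 0.294 at day 7, and 14.0, 10.3 and 10.7 with forskolin. The mutant therefore stood at 6.89% of the full-length mean at day 7 and at 9.33% with forskolin, without overlap in either (24.2% and 20.4% of genes in that direction). In control cells Alpl was close to the limit of detection, with 1 fragment in all 3 samples together at day 0 and 3 fragments at day 7. Control cells with forskolin held 43 fragments and read 0.304, 0.400 and 0.146 FPKM, each above every control sample without forskolin, as in 9.99% of genes. In the order of the 9 groups, neighbours overlapped between full-length NFIA at day 7 and at day 0, between Δpro#3 at day 7 and control with forskolin, and among Δpro#3 at day 0, control at day 7 and control at day 0.

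Tdo2 was measured above a few fragments in full-length NFIA cells at day 7 only. Without forskolin these cells read 0.512, 0.654 and 0.322 FPKM, a mean of 0.496 ± 0.167 (SD, n = 3) from 36 fragments. With forskolin they read 9.85, 12.1 and 10.2 FPKM, a mean of 10.7 ± 1.23 from 837 fragments. The groups did not overlap, as in 10.9% of genes in that direction. All 9 control samples and the 3 full-length NFIA samples at day 0 held 0 fragments, which allows up to 0.0238 FPKM in control cells at day 0, 0.0420 at day 7, 0.0345 with forskolin and 0.0295 in full-length NFIA cells at day 0 (3 fragments over the group). Δpro#3 cells held 1 fragment at day 0, 1 at day 7 and 3 with forskolin, 1 in each sample, so that the mutant stood at 0.316% of the full-length mean under forskolin. Of the 1364 genes with a fragment somewhere in the series but none in the 9 control samples, 12 averaged at least 1 FPKM in full-length NFIA cells with forskolin. Tdo2 was the second highest of these, after Ghrh, which encodes growth hormone releasing hormone and was named after its value was seen.

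**Figure D1:**
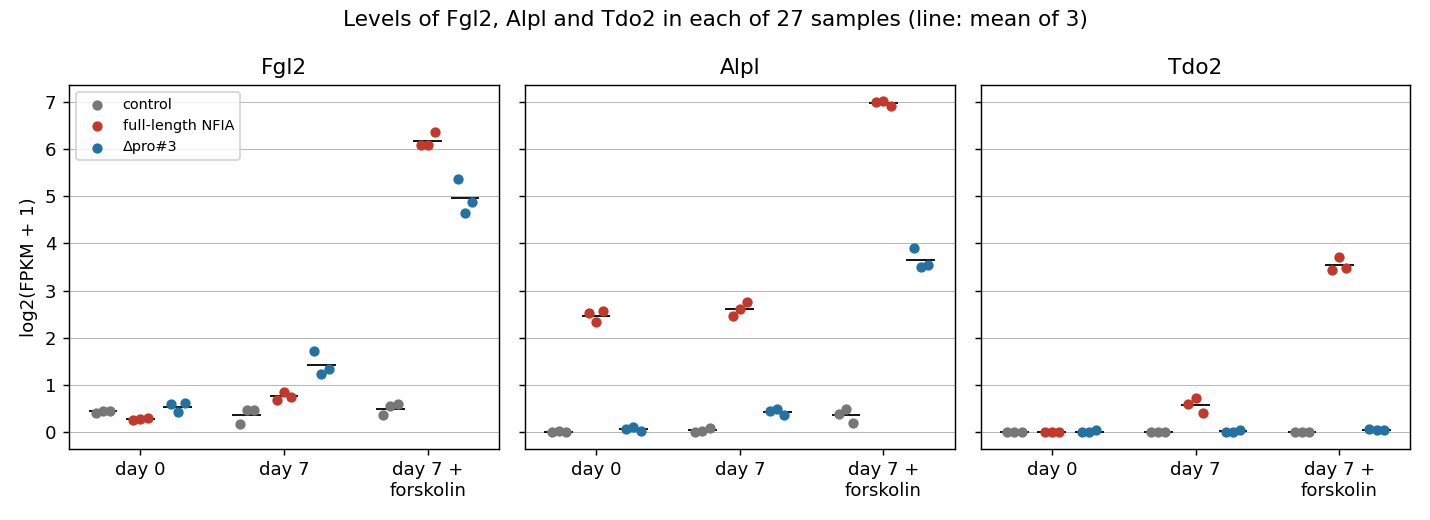
Each point is 1 of 27 samples, with log2(FPKM + 1) on the vertical axis, the day and treatment on the horizontal axis and the construct by colour, and each line is the mean of 3 samples. Full-length NFIA samples with forskolin are the highest for all 3 genes, Δpro#3 samples with forskolin are high for Fgl2 and Alpl and near 0 for Tdo2, and control samples stay below 1.

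On the log2(FPKM + 1) scale the forskolin response, the mean with forskolin minus the mean without, was 5.41 for Fgl2 (SE 0.16), 4.37 for Alpl (SE 0.10) and 2.97 for Tdo2 (SE 0.09) in full-length NFIA cells. In Δpro#3 cells the responses were 3.53, 3.22 and 0.03, and in control cells 0.13, 0.32 and 0.00. Among 11391 genes with a mean of at least 1 FPKM in the 18 samples, Fgl2 had the largest difference in response between full-length NFIA and control cells (5.28) and between Δpro#3 and control cells (3.40). Alpl ranked 2 in the first comparison (4.05) and 5 in the second (2.90). Tdo2 ranked 2 between Δpro#3 and full-length NFIA cells (-2.94), 11 between full-length NFIA and control (2.97) and 9819 between Δpro#3 and control (0.03). Fgl2 and Alpl ranked 27 and 129 between Δpro#3 and full-length NFIA cells, with differences of -1.88 and -1.15. Since these responses chose the genes, the number of members past both thresholds used across genes, an adjusted p under 0.05 and more than 3-fold, is only a description. All 3 were past the 3-fold size in full-length NFIA cells, where 0.596% of 12245 genes were called higher, Fgl2 and Alpl in Δpro#3 cells, where 0.457% were, and none in control cells, where 0.245% were.

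The pseudocount of 1 shrinks the fold change of genes with low levels, so the responses were also computed as a ratio of fragments per depth, with 95% exact intervals that cover counting error only. Fgl2 was 98.0-fold higher with forskolin in full-length NFIA cells (interval 81.5 to 119) and 18.6-fold higher in Δpro#3 cells (16.6 to 21.0). Its ratio in control cells was 1.35 (0.933 to 1.98). The Alpl ratio was 24.3 in full-length NFIA cells (22.4 to 26.5), 32.0 in Δpro#3 cells (24.1 to 43.5) and 11.8 in control cells (3.77 to 59.4). The Alpl ratio in control cells rests on 3 fragments without forskolin, and its interval includes both 24.3 and 32.0. On this scale, and with a pseudocount of 0.1 or a fit to fragments, the Alpl response was larger in Δpro#3 than in full-length NFIA cells, so that the sign of -1.15 on the log2(FPKM + 1) scale depends on the scale. Tdo2 was 20.4-fold higher in full-length NFIA cells (14.6 to 29.3), and no ratio could be given for Δpro#3 or control cells, with 3 fragments or fewer in both conditions. Between constructs under forskolin, Tdo2 was at least 311-fold higher in mean FPKM in full-length NFIA than in control cells (floor of 3 fragments over the group, and 837 fragments taken without their counting error). As a ratio of fragments per depth it was 336-fold higher in full-length NFIA than in Δpro#3 cells (interval 115 to 1632).

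**Figure D2:**
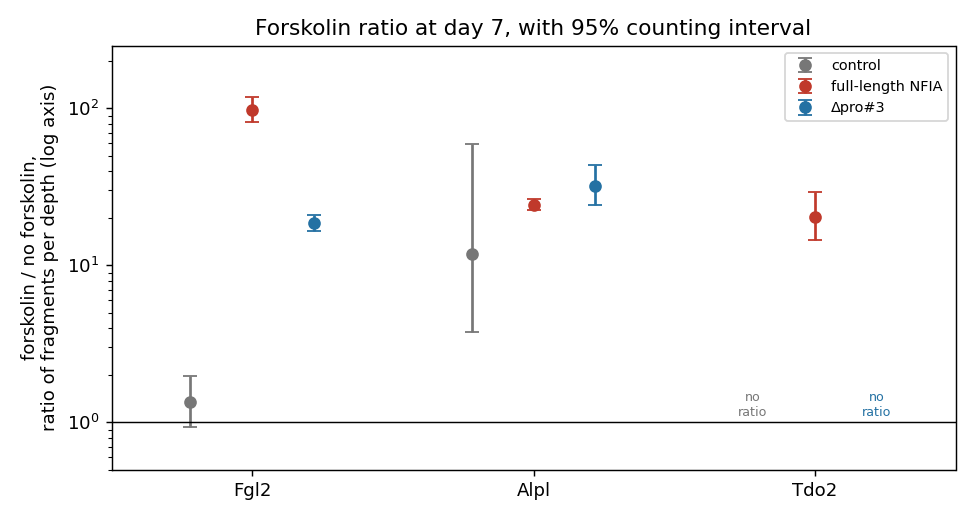
Points are the ratio of fragments per depth with forskolin to without at day 7, on a log axis, for each gene and construct, and bars are 95% counting intervals. Fgl2 ratios are apart (98.0, 18.6 and 1.35), Alpl ratios are all above 1 (24.3, 32.0 and 11.8), and Tdo2 has a ratio in full-length NFIA cells only (20.4).

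The genes ranking beside them differ in how their responses came apart. Nr4a3, a nuclear receptor of the immediate response to cyclic AMP, ranked 3 between full-length NFIA and control cells (3.56) and 1 between Δpro#3 and full-length NFIA cells (-3.53): it averaged 1.17 FPKM ± 0.145 at day 7 and 48.4 ± 2.42 with forskolin in full-length NFIA cells, 2.02 ± 0.331 and 4.97 ± 0.631 in Δpro#3 cells, and 5.15 ± 0.434 and 10.9 ± 1.21 in control cells (n = 3 each). Its mean in control cells was thus above those of the other constructs without forskolin, where Fgl2 was lowest in control cells. Notum, a secreted carboxylesterase that inactivates Wnt proteins, ranked 4 between full-length NFIA and control with the opposite sign (-3.48), with 2.88 and 20.9 FPKM in control and 4.94 and 1.99 in full-length NFIA cells. Hdc, the enzyme that makes histamine, ranked 2 between Δpro#3 and control (3.32), reaching 18.3 FPKM ± 2.46 in Δpro#3 cells with forskolin against 2.58 ± 0.213 in full-length NFIA cells. Unlike the 3 genes, it was thus higher in Δpro#3 than in full-length NFIA cells under forskolin. Control cells (0.208 ± 0.0325) were lowest, as for Fgl2 and Alpl, while Tdo2 was at the floor in both control and Δpro#3 cells. The other genes that the naming rule reached were Cyr61 (5 between full-length NFIA and control), Snord91a, Rpl14-ps1, Gm48909, Gm15501, S100a8, Mir6392 and Mir1938, with differences between -2.52 and 3.33 in those comparisons. Rpl14-ps1, Gm48909 and Gm15501, which are pseudogenes or unnamed models, entered through lower values with forskolin in control cells, such as 81.0 to 9.84 FPKM for Rpl14-ps1. By the paper's alignment settings, reads with several places in the genome were left out. Whether reads of similar copies were still assigned to these genes was not tested. Cyr61 and Snord91a were also lower with forskolin in control cells, at 186 and 37.4 FPKM for Cyr61 and 6.27 and 1.89 for Snord91a, while in full-length NFIA cells they read 29.7 and 62.2, and 0.581 and 5.14.

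**Figure D3:**
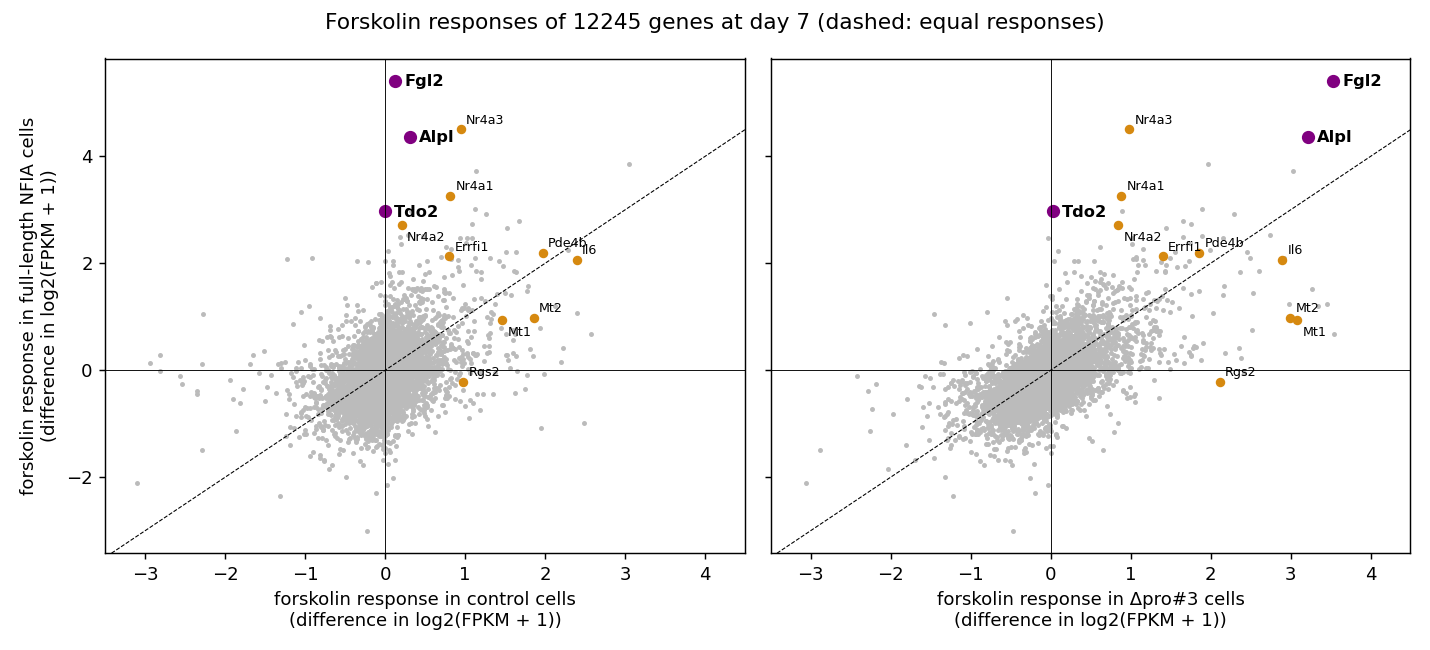
Each grey point is 1 of 12245 genes, with its forskolin response in full-length NFIA cells on the vertical axis against that in control cells (left) or Δpro#3 cells (right), both as differences in log2(FPKM + 1), and the dashed line marks equal responses. Purple points are Fgl2, Alpl and Tdo2, all above the line, and orange points are genes of the cyclic AMP and glucocorticoid lists that the naming rule reached.

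Day 0 was not used to choose the genes and allows a test. Of the 3, only Alpl passed the filter of a mean of 0.5 FPKM over the 9 day 0 samples, and it passed through the full-length NFIA samples alone, so that a gene picked up by the filter in this way had to differ. With every gene that held a fragment kept in the fit, its differences had adjusted p = 4.9e-09 between full-length NFIA and control and 1.9e-08 between Δpro#3 and full-length NFIA (limma). In the filtered fit it was 2.46 higher on the log2(FPKM + 1) scale in full-length NFIA than in control cells (SE 0.07, limma, adjusted p = 1.7e-10), a call shared by 2.46% of 12105 genes in that direction. As a ratio this is 929 (interval 166 to 36752), from 750 fragments against 1. Δpro#3 cells were 2.41 lower than full-length NFIA cells (-2.41, SE 0.07, limma, adjusted p = 6.3e-10), where 1.12% of genes were called lower, and the full-length to Δpro#3 ratio was 97.0 (50.8 to 213). Between Δpro#3 and control cells the difference of 0.06 (SE 0.07) did not pass (limma, adjusted p = 0.49; 0.859% of genes were called higher), and 9 fragments against 1 leave an interval of 1.33 to 420 for the ratio. With the fit to fragments that difference was 2.16 and passed both thresholds (adjusted p = 0.017), so the call depends on the scale. Without control replicate 2, which held the only Alpl fragment of the day 0 controls and the 7.35 FPKM of Nfia, the call of Alpl between full-length NFIA and control was kept, in the same direction. Fgl2, below the filter, was compared with an exact permutation test, two-sided, which for 3 against 3 samples cannot go below 0.1. Its mean was lower in full-length NFIA (0.210 FPKM ± 0.0240) than in control cells (0.354 ± 0.0254; exact p = 0.1, n = 3 each), without overlap, as in 28.6% of the 18214 genes with a fragment at day 0. Δpro#3 cells (0.455 ± 0.105) did not overlap full-length NFIA cells either (exact p = 0.1, n = 3 each; 27.2% of genes), and they overlapped control cells (exact p = 0.3, n = 3 each). When genes below the filter were kept in the fit, limma gave an adjusted p of 0.020 for full-length NFIA against control and 0.0020 for Δpro#3 against full-length NFIA, both under 3-fold. The share of all genes with such an adjusted p in that fit is not given here. At day 0 full-length NFIA cells thus held the lowest Fgl2 of the constructs and the highest Alpl. Tdo2 held 1 fragment in the 9 day 0 samples and could not be compared.

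From day 0 to day 7, in samples that the choice of genes partly used, Alpl in full-length NFIA cells changed by a ratio of 1.15 (1.03 to 1.28) with overlapping samples, and in Δpro#3 cells it was 7.74-fold higher (3.76 to 17.9), with 9 fragments at day 0 and 49 at day 7. Fgl2 was 3.55-fold higher (2.51 to 5.09) in full-length NFIA and 3.56-fold higher (2.89 to 4.43) in Δpro#3 cells at day 7. In control cells its ratio was 0.820 (0.570 to 1.17). Tdo2 was at least 16.8-fold higher in mean FPKM at day 7 than at day 0 in full-length NFIA cells, from the floor of 3 fragments over the day 0 group and with the 36 fragments of day 7 taken without their counting error. The myotube markers rose from 946 to 1030 FPKM at day 0 to 11411 to 13355 at day 7 in control cells, which held no Tdo2 fragment at either time.

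In 3 groups replicate 1 stood apart from the other two by fragment counts, as the mean chi-square per gene between 2 samples: Δpro#3 at day 7 (14.4 and 14.0, against 5.95 between replicates 2 and 3), Δpro#3 with forskolin (11.9 and 14.0, against 6.04) and full-length NFIA with forskolin (13.5 and 15.0, against 3.40). Over all 27 pairs the median was 5.04. Without replicate 1, full-length NFIA cells with forskolin averaged 73.9 FPKM for Fgl2, 124 for Alpl and 11.2 for Tdo2, and their responses on the log2(FPKM + 1) scale were 5.46, 4.35 and 3.03, close to the values with all 3 samples. Δpro#3 replicate 1 had the highest adipocyte marker sum of its group at day 7 (2068 FPKM, against 639 and 751) and with forskolin (924, against 558 and 593), and also the highest Fgl2 in both and the highest Alpl with forskolin. Whether the marker level has a part in this was not tested. Without replicate 1 the Δpro#3 mean with forskolin was 26.2 FPKM for Fgl2 and 10.5 for Alpl, and the response on the log2(FPKM + 1) scale was 3.48 and 3.09. With forskolin, control samples had 318 to 332 FPKM of adipocyte markers.

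The genes whose levels followed each gene most closely were taken from 12379 genes with a mean of at least 0.5 FPKM, by Pearson's r of log2(FPKM + 1) over the 27 samples. The samples form 9 groups, so r mostly compares group means. For Fgl2 these were Ttyh1 (0.98), Tubb4a (0.98), Il31ra (0.97), Sdc4 (0.95) and C2cd4c (0.94). Il31ra, a cytokine receptor subunit, came closest to Fgl2 in the share of Δpro#3, with 3.24 FPKM ± 0.335 in full-length NFIA and 1.38 ± 0.437 in Δpro#3 cells with forskolin (n = 3 each). Ttyh1, a chloride channel family member, read 5.84 ± 1.13 and 5.33 ± 2.42 FPKM there, so that the constructs differed by less than the spread. For Alpl they were Tnfaip6 (0.97), Tmed5 (0.95), Pmvk (0.95), Hspa5 (0.94) and Parm1 (0.94). Pmvk, an enzyme of the mevalonate pathway, had 90.6 FPKM ± 1.58 at day 7 and 521 ± 47.9 with forskolin in full-length NFIA cells, and 72.7 ± 4.04 in Δpro#3 cells with forskolin. Like Alpl itself, its 5 most alike genes all had higher means in full-length NFIA than in control cells already at day 0. Among them are Tnfaip6, a hyaluronan-binding protein, and Hspa5, the endoplasmic reticulum chaperone BiP. The day 0 samples entered r, so these means were part of the choice and were not tested. For Tdo2 they were Fam222a (0.98), Wfdc12 (0.96), Zcchc2 (0.95), Rdh18-ps (0.95) and Pex5 (0.95). Fam222a averaged 4.29 FPKM ± 0.777 in full-length NFIA cells with forskolin and at most 0.120 in every other group, the same outline as Tdo2. Pex5, the import receptor for peroxisomal proteins, had 61.5 ± 2.22 FPKM there and 19.1 to 34.4 in the other groups, so that its level was not restricted to these cells. Over the same samples r was 0.86 between Fgl2 and Alpl, 0.84 between Alpl and Tdo2 and 0.73 between Fgl2 and Tdo2. By Spearman's rank correlation none of the 5 genes stayed among the 5 most alike for any of the 3.

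**Figure D4:**
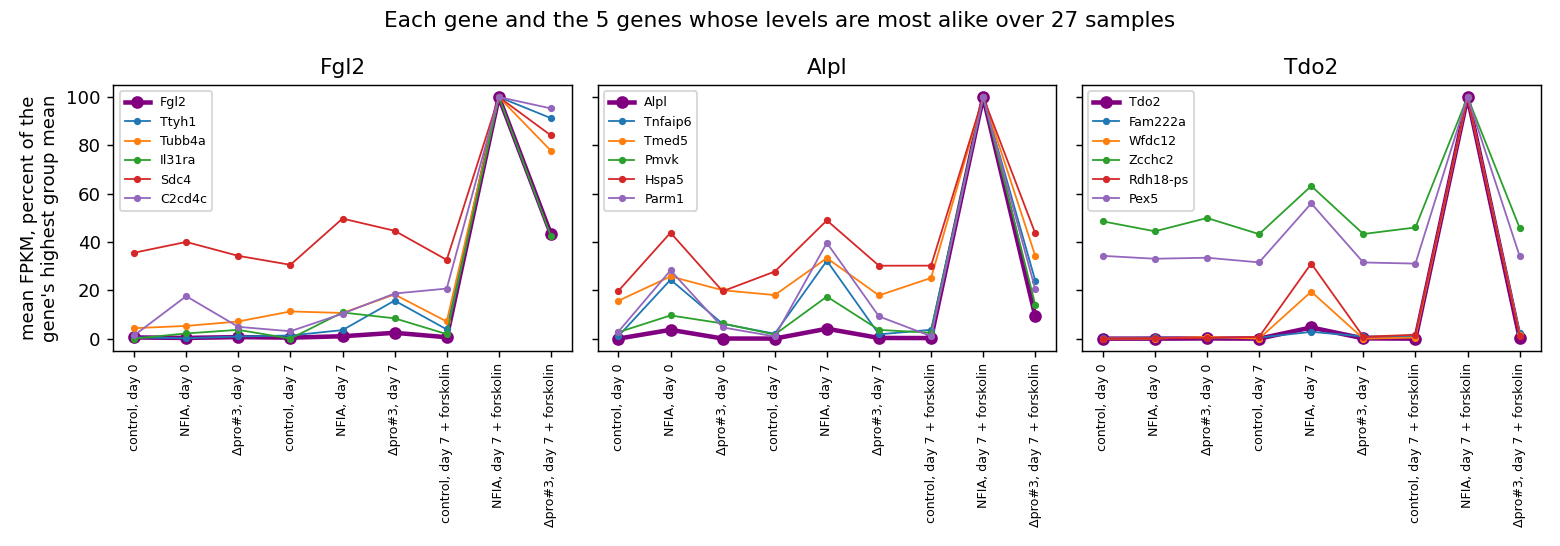
Lines join the mean FPKM of 9 groups, each as a percentage of the gene's own highest group mean, for Fgl2, Alpl and Tdo2 (thick) and the 5 genes most alike by Pearson's r (thin). All peak in full-length NFIA cells with forskolin. Fgl2 stands at 43.2% of that peak, Alpl at 9.33% and Tdo2 at 0.316% in Δpro#3 cells with forskolin.

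None of the nearest annotated genes was called in its response to forskolin. Ccdc146, on the opposite strand around Fgl2, has no exon within the span of Fgl2 and averaged at most 0.0306 FPKM in any group. Gsap and Fam185a lie 80940 and 46583 bases from Fgl2, Rap1gap and Ece1 11865 and 65852 bases from Alpl, and Ctso and Asic5 364 and 6087 bases from Tdo2. Of the 7 genes, Gsap, Fam185a, Ece1 and Ctso passed the filter at day 7, and none of their 24 responses and differences in response passed both thresholds by limma or by the fit to fragments. The values lay between -0.35 and 0.37 on the log2(FPKM + 1) scale, 8 of 24 with an unadjusted p under 0.05 (38.5% over all genes and the same comparisons) and 4 with an adjusted one. Ctso, a cysteine protease whose annotated end is 364 bases from Tdo2, fell by 0.35 with forskolin in full-length NFIA cells (limma, adjusted p = 0.0053), where 41.5% of all genes were lower at an adjusted p under 0.05 and the median of all genes was -0.15. Ece1, the endothelin-converting enzyme, averaged 12.1 FPKM ± 0.0457 without and 12.6 ± 0.134 with forskolin in full-length NFIA cells (n = 3 each). Asic5 had no fragment in any group. At day 0 Gsap was lower in full-length NFIA than in control cells (-1.06, SE 0.07, limma, adjusted p = 8.8e-08), which is under 3-fold. It averaged 2.98 FPKM ± 0.407 against 7.28 ± 0.318. The same difference was -0.10 for Fam185a, 0.01 for Ece1 and -0.25 for Ctso. Rap1gap, beside Alpl, was below the filter and was not tested. At day 0 it averaged 0.946 FPKM ± 0.0177 in full-length NFIA, 0.133 ± 0.0154 in control and 0.169 ± 0.0194 in Δpro#3 cells. Like Alpl, it was thus highest in full-length NFIA cells at day 0.

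**Figure D5:**
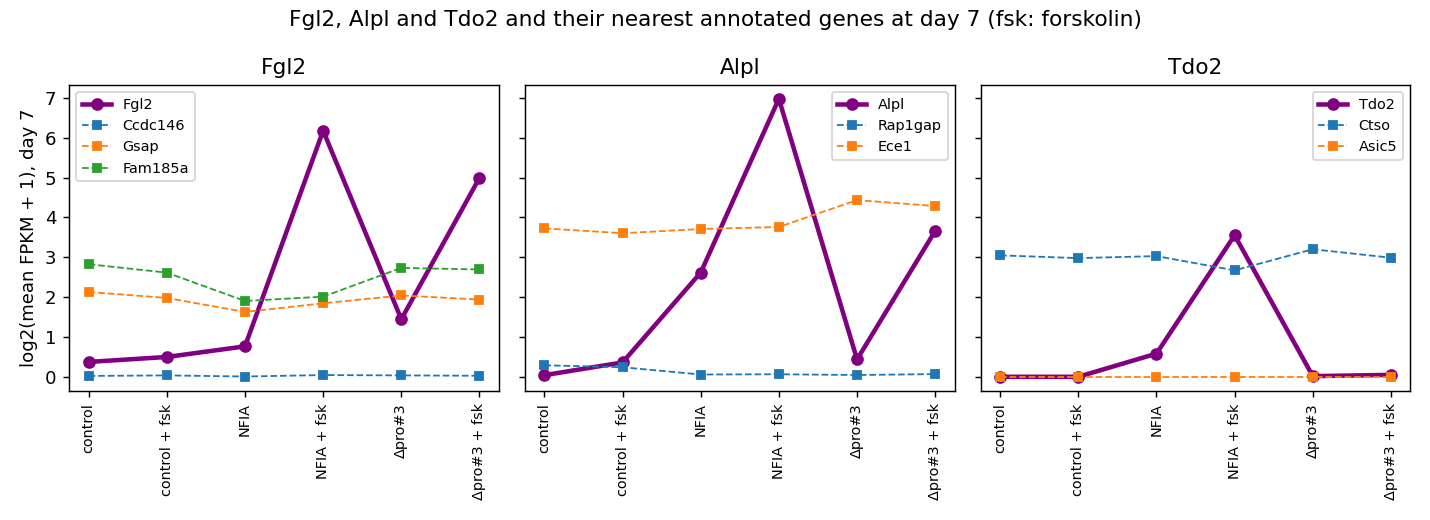
Points are log2 of the mean FPKM + 1 in 6 groups at day 7 (fsk marks forskolin) for Fgl2, Alpl and Tdo2 (thick lines) and their nearest annotated genes (dashed). The 4 neighbours that passed the filter lie between 2.09 and 20.6 FPKM, with no called response to forskolin. Their levels can differ between constructs, such as 6.09 FPKM in control and 2.74 in full-length NFIA cells without forskolin for Fam185a. The 3 genes are highest in full-length NFIA cells with forskolin.

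The pathways of the genes were read from 5 lists, 115 genes in all without the 3 members, of which 80 passed the filter at day 7. Across all genes the median response to forskolin was -0.05 in control, -0.15 in full-length NFIA and -0.06 in Δpro#3 cells on the log2(FPKM + 1) scale. Scaling by the median ratio moved the full-length median to -0.04. Called means an adjusted p under 0.05 by limma and more than 3-fold in FPKM + 1.

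Genes known to respond to cyclic AMP were called in all 3 constructs. Of 24 tested genes of 25, 2 were called higher and 0 lower in control cells, 8 and 0 in full-length NFIA cells, and 3 and 0 in Δpro#3 cells, with medians of 0.52, 1.44 and 0.86. In full-length NFIA cells 13 were called with a pseudocount of 0.1 and 12 by the fit to fragments or with median-ratio scaling, and in control cells 1 at a minimum of 5 FPKM. Among all tested genes 0.245%, 0.596% and 0.457% were called higher and 0.147%, 0.147% and 0.131% lower. By adjusted p alone, 16, 22 and 19 of the list rose and 1 fell in each, against 7.05%, 13.9% and 11.9% of all genes higher and 13.5%, 41.5% and 23.9% lower. Pde4b, which degrades cyclic AMP, was called in all 3, with responses of 1.97 in control, 2.20 in full-length NFIA and 1.86 in Δpro#3 cells (SE 0.07 each). Il6, a cytokine, was also called in all 3, at 2.39, 2.06 and 2.89 (SE 0.16 each). The nuclear receptors Nr4a1, Nr4a2 and Nr4a3 were called in full-length NFIA cells only, at 3.27, 2.72 and 4.51, against 0.88, 0.85 and 0.98 in Δpro#3 cells. Their differences between Δpro#3 and full-length NFIA cells were called (-2.39, -1.88 and -3.53; limma, adjusted p = 2.7e-09 for Nr4a1 and 1.1e-10 for Nr4a3), as were those between full-length NFIA and control cells (2.45, 2.52 and 3.56). Those between Δpro#3 and control cells were not (0.07, 0.64 and 0.04). As a description, the differences of Fgl2 and Alpl between Δpro#3 and control cells were 3.40 and 2.90. That of Alpl was 1.74 by the fit to fragments, with 3 fragments in control cells without forskolin. Rgs2, a regulator of G protein signaling, went the other way, with a response of 2.11 in Δpro#3, 0.98 in control and -0.22 in full-length NFIA cells, and a called difference of 2.33 between Δpro#3 and full-length NFIA. In all, 3 genes of the list were called higher and 0 lower in the difference between full-length NFIA and control (all genes 0.392% and 0.18%), and 1 higher and 5 lower between Δpro#3 and full-length NFIA (0.188% and 0.18%). With median-ratio scaling the first difference gave 5 calls. The other two of the 5 were Atf3 (-1.75) and Irs2 (-1.66), a stress-induced transcription factor and an insulin receptor substrate, named because the count includes them. Irs2 fell under 3-fold without Δpro#3 replicate 2 in either condition. Between Δpro#3 and control 0 were called by limma and by the fit to fragments, 5 were higher at an adjusted p under 0.05 (2.47% of all genes) and 11 had an unadjusted one under it (19% of all genes), where 0.155% of all genes were called higher and 0.0572% lower.

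The list of fibrinogen-related and coagulation genes, to which Fgl2 is related, gave no call by limma in any of the 3 responses, of 17 tested genes of 30. By adjusted p alone 1 rose and 4 fell in control, 2 and 7 in full-length NFIA and 2 and 7 in Δpro#3 cells, where 7.05%, 13.9% and 11.9% of all tested genes rose and 13.5%, 41.5% and 23.9% fell. In the list 7, 9 and 12 had an unadjusted p under 0.05, against 32%, 60.1% and 45.3% of all tested genes, and the fit to fragments and a pseudocount of 0.1 each called 1 in full-length NFIA cells. The medians were -0.15, -0.14 and -0.33. The differences in response between full-length NFIA and control, Δpro#3 and control, and Δpro#3 and full-length NFIA gave 0 calls by limma, with 11, 9 and 8 genes at an unadjusted p under 0.05, against 40.8%, 19% and 34% of all tested genes, and 2, 1 and 0 calls by the fit to fragments. With a pseudocount of 0.1 they gave 2, 1 and 1 calls. Between Δpro#3 and control 1 gene was also called in 3 of the 18 fits that each left out 1 sample: Δpro#3 replicate 3 without forskolin, and control replicate 3 or Δpro#3 replicate 1 with it. Fgl1, which shares the fibrinogen-like name of Fgl2, averaged 0.775 FPKM at day 7 and 0.674 with forskolin in full-length NFIA cells, and 5.19 and 3.02 in Δpro#3 cells. The fibrinogen chains Fga, Fgb and Fgg averaged at most 0.0270 FPKM in any group.

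The list around Alpl, mineralization and phosphate genes, likewise gave no call by limma in the responses, of 15 tested genes of 23. By adjusted p alone 1 rose and 4 fell in control, 3 and 9 in full-length NFIA and 4 and 4 in Δpro#3 cells, where 7.05%, 13.9% and 11.9% of all tested genes rose and 13.5%, 41.5% and 23.9% fell. In the list 8, 13 and 11 had an unadjusted p under 0.05, against 32%, 60.1% and 45.3% of all tested genes, and the fit to fragments called 0. The medians were 0.08, -0.36 and -0.08. The same 3 differences in response gave 0 calls by limma and by the fit to fragments, with 9, 8 and 8 genes at an unadjusted p under 0.05, against 40.8%, 19% and 34% of all tested genes. The other alkaline phosphatases Alpi, Alppl2 and Akp3 averaged at most 0.305 FPKM. Phospho1, a phosphatase of the same matrix vesicles, averaged 210 FPKM at day 7 and 241 with forskolin in full-length NFIA cells, against 45.6 and 50.6 in Δpro#3 cells. The 6 osteoblast markers summed to 25.4 to 32.3 FPKM in full-length NFIA cells with forskolin and to 6.46 to 7.63 in control cells with forskolin. Most of the former was Bglap, the bone matrix protein osteocalcin, which averaged 20.2 FPKM at day 7 and 25.9 with forskolin in full-length NFIA, 10.9 and 8.31 in Δpro#3 and 0.389 and 0.576 in control cells. Runx2, the osteoblast transcription factor, averaged 2.44 FPKM in full-length NFIA and 6.45 in control cells with forskolin, while Ibsp, Sost and Sp7 had no fragment in the former. At day 0, however, Runx2 averaged 15.0 FPKM in full-length NFIA, 7.86 in control and 7.08 in Δpro#3 cells. The 6 markers then summed to 18.3 to 21.8, 8.13 to 9.05 and 9.39 to 9.65 FPKM in the same order. The part of these markers in the Alpl values was not tested.

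The list around Tdo2, tryptophan and kynurenine genes, gave no call by limma either, of 12 tested genes of 24. By adjusted p alone 1 rose and 2 fell in control, 3 and 5 in full-length NFIA and 3 and 2 in Δpro#3 cells, where 7.05%, 13.9% and 11.9% of all tested genes rose and 13.5%, 41.5% and 23.9% fell. In the list 3, 10 and 8 had an unadjusted p under 0.05, against 32%, 60.1% and 45.3% of all tested genes, and the fit to fragments called 0. The medians were -0.08, -0.17 and 0.04. The 3 differences in response gave 0 calls by limma and by the fit to fragments, with 7, 5 and 4 genes at an unadjusted p under 0.05, against 40.8%, 19% and 34% of all tested genes. Ido1, which catalyses the same step as Tdo2, averaged at most 0.0434 FPKM in any group. Afmid, the next enzyme of the pathway, averaged 1.91 FPKM at day 7 and 1.44 with forskolin in full-length NFIA cells. Kmo and Kynu, which act after it, averaged at most 0.0105 FPKM, and Kynu had no fragment in the 27 samples. Fgl1, Fga, Fgb, Fgg, Alpi, Alppl2, Akp3, Phospho1, Bglap, Runx2, Ido1, Afmid, Kmo and Kynu were named for their place beside the 3 genes, outside the naming rule and with their values known.

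The glucocorticoid-responsive list was included because dexamethasone was in the first medium and Tdo2 is known as a glucocorticoid target in liver. Of 12 tested genes of 13, 1 was called higher in control (Mt2), 1 in full-length NFIA (Errfi1) and 2 in Δpro#3 cells (Mt1 and Mt2), and 0 lower in each, with medians of 0.59, 0.51 and 0.66. Of all tested genes 0.245%, 0.596% and 0.457% were called higher. By adjusted p alone 8, 7 and 9 of the list rose and 0, 2 and 0 fell, where 7.05%, 13.9% and 11.9% of all tested genes rose and 13.5%, 41.5% and 23.9% fell. The metallothionein genes Mt1 and Mt2 had responses of 3.08 and 2.99 in Δpro#3 cells, 0.95 and 0.98 in full-length NFIA cells, and 1.47 and 1.86 in control cells. Their differences between Δpro#3 and full-length NFIA were called (2.14, SE 0.20, and 2.01, SE 0.21; limma, adjusted p = 2.3e-06 and 5.5e-06), where 0.188% of all genes were called higher. Between Δpro#3 and control Mt1 was called (1.61, SE 0.20; limma, adjusted p = 0.00020; 0.155% of all genes were called higher), but it fell under 3-fold in 5 of 18 fits that each left out 1 sample: control replicate 3 or Δpro#3 replicate 3 without forskolin, or control replicate 1, control replicate 3 or Δpro#3 replicate 1 with it. Between full-length NFIA and control 0 genes of the list were called by limma and by the fit to fragments, with 7 at an unadjusted p under 0.05 (40.8% of all tested genes), while a pseudocount of 0.1 gave 1 call.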

How the data were processed

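RNA-seq of poly A RNA was analysed in 27 C2C12 samples, 9 groups of 3. Stranded libraries were aligned to mm9 (NCBIM37) with STAR 2.5.3a, and the authors deposited FPKM per gene, 24825 genes for each sample. Since FPKM are not counts, limma 3.58.1 (R 4.3.3) was used in place of the study's DESeq2: a linear model on log2(FPKM + 1) with a trend on the mean and one mean per group, Benjamini-Hochberg adjusted over all genes with a mean of at least 0.5 FPKM, for the 9 day 0 samples (12105 genes) and the 18 day 7 samples (12245 genes). Genes were called at an adjusted p under 0.05 and more than 3-fold in FPKM + 1. Every deposited value came out as a whole number of fragments within 0.01, so ratios carry exact counting intervals, and limma-voom on these fragments was an alternative, called the fit to fragments in the text. Intervals and floors (3 fragments over a group) cover counting error only. p-values measure the spread between samples, which may be technical. Deviations of samples with the same replicate number correlated over 0.1 in 0 of 9 pairs at day 0 and 12 of 45 at day 7, and, comparing samples without and with forskolin within a construct, for all 3 numbers in Δpro#3 (0.36, 0.16 and 0.10) but not in full-length NFIA or control. The labels tie the numbers to nothing shared, the main fit has no replicate block, and the Δpro#3 response was also fitted with one. Other analysis used Python 3.11.15, pandas 2.3.3, numpy 2.4.6 and scipy 1.17.1. The scripts were tested on simulated data.

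The 3 genes, the lists and the tests were chosen with earlier results of these data known. Named genes were the 3 members and Nfia, the 6 genes with the largest difference in forskolin response in each comparison of constructs (mean of at least 1 FPKM), the 5 genes most alike to each member, the nearest annotated genes, and from each list up to 3 called genes per response and 2 per difference, with exceptions named where they appear. Alternatives changed the pseudocount, the filter, the scaling, the model, the samples fitted and the replicates. The files list 26 symbols as dates, and 2 symbols occur more than once.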

Additional observations from a re-analysis of the deposited data

Results flagged for a closer look

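The response to forskolin differed between constructs, by a test of the difference itself (limma, adjusted p under 0.05 and more than 3-fold), for 8 genes of the lists. Between full-length NFIA and control cells the difference on the log2(FPKM + 1) scale was 2.45 for Nr4a1, 2.52 for Nr4a2 and 3.56 for Nr4a3, higher in full-length NFIA cells. Between Δpro#3 and full-length NFIA cells it was -2.39 for Nr4a1, -1.88 for Nr4a2, -3.53 for Nr4a3, -1.75 for Atf3 and -1.66 for Irs2, lower in Δpro#3 cells, and 2.33 for Rgs2, 2.14 for Mt1 and 2.01 for Mt2, higher in Δpro#3 cells. Between Δpro#3 and control cells Mt1 differed by 1.61. When 1 sample was left out, that Mt1 difference fell under 3-fold in 5 of 18 fits, and the Irs2 difference in 2 of 18. The comparisons with full-length NFIA cells share those samples.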

How the results depend on the processing

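Against the values as reported, the pseudocount of 0.1 and the fit to fragments (limma-voom) moved the most. The direction between Δpro#3 and full-length NFIA turned for Alpl, to 0.10 and 0.37 in that order. The other differences under these settings were 6.06 and 6.07 for Fgl2, 3.04 and 1.37 for Alpl and 4.22 and 4.62 for Tdo2 between full-length NFIA and control, -2.40 and -2.38 for Fgl2 and -3.94 and -3.49 for Tdo2 between Δpro#3 and full-length NFIA, and 0.28 and 1.14 for Tdo2 between Δpro#3 and control, where Alpl gave 1.74 by the fit to fragments. The responses were 0.43 and 0.55 for Fgl2 and 1.55 and 3.24 for Alpl in control cells (Tdo2 -0.26 by the fit to fragments), 6.49 and 6.61, 4.59 and 4.61, and 4.22 and 4.36 for Fgl2, Alpl and Tdo2 in full-length NFIA cells, and 4.09 and 4.23, 4.69 and 4.98, and 0.28 and 0.87 in Δpro#3 cells. These settings differ in how they treat low values. At day 0 Alpl between Δpro#3 and control became 2.16 by the fit to fragments, and Fgl2 without the filter gave -0.16 between full-length NFIA and control and 0.26 between Δpro#3 and full-length NFIA, with adjusted p under 0.05. Alpl had no day 0 value at a minimum of 5 FPKM, nor in a fit of Δpro#3 and control alone, and Fgl2 and Tdo2 lay below the day 0 filter.

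Among all genes at day 0, calls went from 634 to 1082 with the pseudocount of 0.1, 401 at a minimum of 5 FPKM and 1131 by the fit to fragments between full-length NFIA and control, from 264 to 553, 165 and 621 between Δpro#3 and control, and from 248 to 540, 164 and 587 between Δpro#3 and full-length NFIA. Calls of the response went from 48 to 87, 31 and 111 in control and from 91 to 184, 60 and 219 in full-length NFIA cells, and from 72 to 150 and 185 (pseudocount and fit to fragments) in Δpro#3 cells. Calls of the difference went from 70 to 141, 42 and 156, from 26 to 51, 17 and 47, and from 45 to 93, 28 and 107, with the comparisons in the order of day 0. Among listed genes, calls in full-length NFIA cells went from 9 to 15 (pseudocount) and 14 (fit to fragments), and differences between full-length NFIA and control from 3 to 7, 5 (median-ratio scaling) and 6, and between Δpro#3 and control from 1 to 2 in both, with 0 to 1 when 1 sample was left out. With Spearman's correlation 0 of 5 alike genes stayed for each of Fgl2, Alpl and Tdo2. The cause was not tested. Depth limits Tdo2, at most 1 fragment a sample outside full-length NFIA cells, and Alpl in control cells.

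Within Δpro#3, where same-numbered samples deviated together, the replicate block left 72 genes and 5 listed genes called for the response, as without it. With the replicate block over all groups Alpl at day 0 was 2.46 higher in full-length NFIA than in control cells (limma, adjusted p = 1.1e-08). That fit was filtered, and Alpl entered it through the full-length NFIA samples alone, so it had to differ. Calls of differences became 69, 25 and 45. Leaving out Δpro#3 replicate 1 in both day 7 conditions and the block within Δpro#3 were chosen after seeing the data.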
